A study of Arabidopsis thaliana with 11 samples.

Results

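The change from 0 h to 8 h of estradiol in seedlings of the inducible SPCH line (iSPCH) was set against the change over the same hours in wild type (WT). For every gene of the deposited table the log2 ratio of 8 h to 0 h in iSPCH was taken minus the same ratio in WT, here called the difference of changes. It uses 7 of the 11 libraries, and 19663 of 33602 listed genes were tested. A positive value means that the iSPCH change was the higher one, and a difference between the lines that was there at 0 h is taken out.

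Messenger RNA came from whole Arabidopsis thaliana seedlings, 4 days old and grown in light. The line iSPCH carries ESTpro:SPCH1-4A-YFP, a tagged SPCH variant placed under estradiol control, and WT is Columbia without that construct. The groups are iSPCH after 8 h in 10 µM beta-estradiol (2 libraries), untreated iSPCH (2 libraries), WT after 8 h in 10 µM beta-estradiol (2 libraries) and untreated WT (1 library). Both lines at 8 h share the estradiol, and no 8 h group went without it. Because the control lacks the construct, effects of the construct other than SPCH cannot be told apart from those of SPCH. Libraries of a pair are named A and B in arbitrary order. The labels do not say whether they came from separate cultures, so each p-value reflects no more than the spread among these libraries, which may be technical. WT at 0 h is a single library, which enters every difference of changes and takes its spread from the other groups. Reads in the genes divided by library ranged from 13490971 to 21491337 per library over the 7.

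SPEECHLESS (SPCH) is a basic helix-loop-helix transcription factor that starts the stomatal lineage in the young shoot epidermis. With the related proteins ICE1 and SCRM2 as partners it drives asymmetric divisions, after which MUTE and FAMA guide the later steps to guard cells. Secreted peptides of the EPF family, read by ERECTA-family receptor kinases and TMM, restrain the lineage through a MAP kinase cascade that acts on SPCH itself. Root hairs form on another part of the epidermis, along the root.

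SPCH (AT5G53210) held 41638 and 39757 normalised read counts in iSPCH at 8 h, against 170 and 232 in iSPCH at 0 h. WT held 99.5 and 141 at 8 h and 178 at 0 h. The difference of changes was 8.26 ± 0.30 (SE) on the log2 scale, or 306-fold (limma, Benjamini-Hochberg adjusted p = 4.11e-06). The table has a single entry for SPCH, so the value checks the induction and does not separate transgene from endogenous transcript.

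At a false discovery rate (FDR) of 0.05, 350 genes had a higher change in iSPCH (1.78% of those tested) and 292 a lower one (1.49%), together 642 (3.27%). At least 2-fold were 169 of the higher (0.859% of genes tested) and 85 of the lower (0.432%). When reads were scaled by library totals the split was 490 higher and 231 lower, and the median of all genes stood at 0.03 instead of -0.03. The counts depended on single libraries. In all, 343 genes were called without iSPCH 8 h A, 392 without iSPCH 0 h A, 421 without iSPCH 0 h B and 406 without WT 8 h A. The higher calls numbered 177 without iSPCH 8 h A, 227 without iSPCH 0 h A and 218 without WT 8 h A. The lower calls numbered 166 without iSPCH 8 h A, 165 without iSPCH 0 h A, 144 without iSPCH 0 h B, 188 or 191 with WT 8 h A or B left out, and 466 without iSPCH 6 h B. Both lines moved widely on their own. In iSPCH 13431 genes changed between 0 h and 8 h (68.3%; 34.8% rose and 33.5% fell), and in WT 12017 (61.1%; 31.2% rose and 29.9% fell).

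The 642 genes fall into classes by what each line did in its own contrast. Of the 350 with a higher change, 245 rose in iSPCH. In WT 100 of these 245 rose too, 100 were not called and 45 fell. The remaining genes did not rise in iSPCH: 55 were not called there while they fell in WT, and 50 fell in both lines. Of the 292 with a lower change, 194 fell in iSPCH. In WT 123 of them fell as well, 55 were not called and 16 rose. Among the others, 66 rose in both lines and 32 rose in WT with no call in iSPCH. Hence 150 genes of the higher set fell in WT, and 114 genes of the lower set rose in WT.

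**Figure D1:**
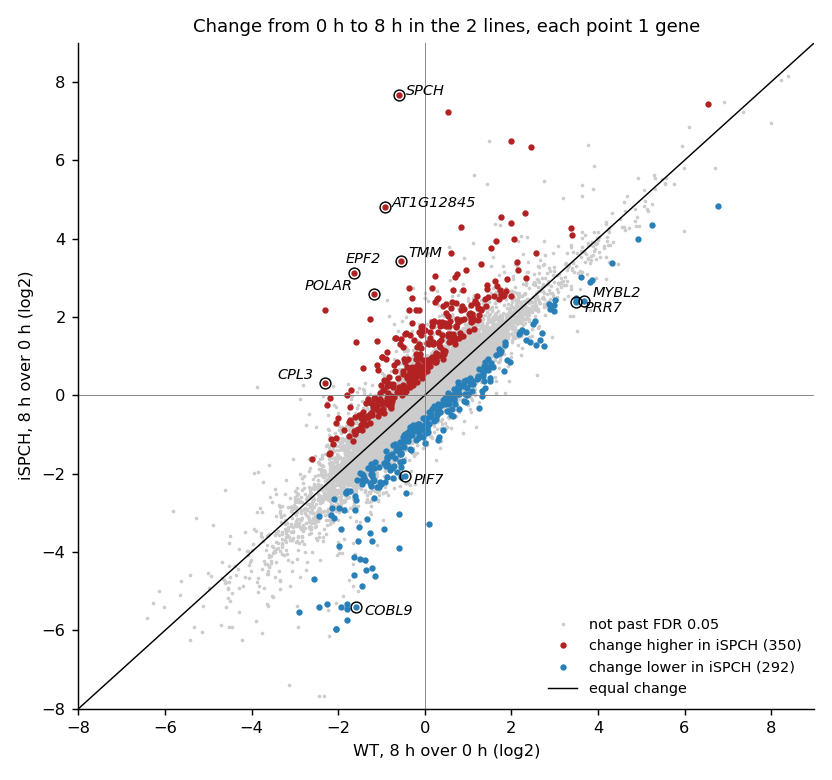
Change from 0 h to 8 h in WT (x axis, log2) and in iSPCH (y axis, log2) for each of the 19663 genes tested. The 350 red genes lie above the line of equal change and the 292 blue ones below it, and circles mark named genes such as EPF2 and COBL9.

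Many stomatal lineage genes had a higher change in iSPCH. All gene lists were written with earlier results of these data known. Their counts beside the shares of all genes are therefore descriptions only. Of 27 tested members other than SPCH, 11 were called higher and 0 lower, against 1.78% and 1.49% of all genes. The other 16 did not pass the threshold, and CHAL and CLE10 had too few reads to test. The list median was 0.23, against -0.03 over all genes. Of the 27 values 16 lay above 0 and 11 below, against 9012 and 10651 over all genes. As whole seedlings were sampled, more cells of the lineage and more RNA per cell cannot be told apart. Leaving out single libraries of the compared groups gave 10 or 11 higher calls. Tested against a 1.5-fold minimum, 7 of the 27 were called higher. With the filter set at a mean CPM of at least 5, 20 members were tested and 8 were called higher. A lower call, of ER, came with edgeR, or when WT 8 h A or iSPCH 8 h B was left out, while DESeq2 gave 0 lower and limma had 3 lower at an unadjusted p under 0.05.

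Peptide genes were among those called. EPF2 (AT1G34245), which limits how many cells enter the lineage, stood at 375 and 365 normalised read counts in iSPCH at 8 h and 33.4 and 51.5 at 0 h. WT held 7.86 and 20.4 at 8 h and 41.6 at 0 h. The lines overlapped at 0 h and lay far apart at 8 h. EPF2 rose in iSPCH by 3.12 ± 0.38 and fell in WT by 1.63 ± 0.47. The difference of changes was 4.75 ± 0.60, or 27.0-fold (adjusted p = 0.00135). CLE9 (AT1G26600), a CLE-family peptide gene, had 115 and 121 in iSPCH at 8 h and 44.8 and 40.8 at 0 h, against 29.7 and 23.8 in WT at 8 h and 39.3 at 0 h. Its difference of changes was 1.99 ± 0.34 (adjusted p = 0.00475).

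Receptor genes were called too. TMM (AT1G80080), a receptor-like protein that shapes how the peptides are read, had 3856 and 3577 in iSPCH at 8 h and 316 and 372 at 0 h. In WT it had 213 and 266 at 8 h and 347 at 0 h. It rose in iSPCH by 3.43 ± 0.11 and fell in WT by 0.54 ± 0.13, a difference of 3.97 ± 0.17 or 15.7-fold (adjusted p = 6.55e-09). The receptor kinase ERL1 (AT5G62230) had 214 and 241 in iSPCH at 8 h and 117 and 111 at 0 h, against 44.5 and 60.1 in WT at 8 h and 104 at 0 h. It rose in iSPCH and fell in WT by a like amount, with a change of 0.99 ± 0.19 in iSPCH and -0.99 ± 0.24 in WT and a difference of 1.98 ± 0.31 (adjusted p = 0.00242). ERL2 (AT5G07180) had 286 and 356 in iSPCH at 8 h and 377 and 355 at 0 h, against 141 and 156 in WT at 8 h and 315 at 0 h. Here iSPCH was not called (-0.20 ± 0.12) and WT fell by 1.08 ± 0.15, so the difference of 0.89 ± 0.20 (adjusted p = 0.0219) comes with a fall in WT. ERL2 was lost without iSPCH 8 h B (adjusted p = 0.0691), iSPCH 0 h A (0.0529), iSPCH 0 h B (0.0770) or WT 8 h A (0.0752). ERECTA itself (ER) went the other way in sign, with -0.61 ± 0.17, and did not pass (adjusted p = 0.0613).

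Upstream windows of the members furthest from equal change are printed to show the letters before genes that moved this far. They were chosen after the values were seen and were read from the TAIR10.1 genome with the RefSeq annotation, 250 bases ending just before each annotated start, as 5′ to 3′ on the gene's strand. Those of EPF2 (chr1:12472618-12472867 on the plus strand) and TMM (chr1:30129650-30129899 on the minus strand) follow, with matches to CANNTG, the general E-box of basic helix-loop-helix factors, or to CNCGTG in capitals.
EPF2: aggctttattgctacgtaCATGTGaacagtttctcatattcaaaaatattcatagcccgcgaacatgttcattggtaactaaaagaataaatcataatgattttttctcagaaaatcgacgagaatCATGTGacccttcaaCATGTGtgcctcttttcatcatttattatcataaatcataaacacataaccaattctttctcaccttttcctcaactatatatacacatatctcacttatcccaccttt
TMM: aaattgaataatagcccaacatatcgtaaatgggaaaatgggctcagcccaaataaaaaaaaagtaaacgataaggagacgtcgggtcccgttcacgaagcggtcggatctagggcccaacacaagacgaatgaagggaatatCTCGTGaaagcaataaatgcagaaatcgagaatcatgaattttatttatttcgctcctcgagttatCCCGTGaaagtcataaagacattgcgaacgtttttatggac
CANNTG stands 3 times in the EPF2 window and 0 times in that of TMM, and CNCGTG stands 0 times in the EPF2 window and 2 times in that of TMM. Both strands were searched, and the E-box form CACGTG matches both patterns. Among the windows of the 11 called members, 5 held CANNTG (45.5%), against 56.3% of the windows of all 18977 protein-coding genes tested. CNCGTG stood in 4 of the 11 (36.4%), against 14.2% of all, and CACGTG in 0 of the 11, against 7.24%. Over the called genes, CNCGTG was in 18.0% of 345 windows of the higher set and 16.3% of 288 of the lower set. These matches describe letters only.

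POLAR and BASL belong to the polarity machinery of the lineage. POLAR (AT4G31805), which marks the polar domain of dividing lineage cells, had 645 and 690 in iSPCH at 8 h and 106 and 113 at 0 h. WT had 35.8 and 49.9 at 8 h and 97.0 at 0 h. The iSPCH change was 2.60 ± 0.16 and the WT change -1.18 ± 0.20, a difference of 3.78 ± 0.26 or 13.7-fold (adjusted p = 1.25e-06). BASL (AT5G60880), the cortical protein that sets the division asymmetry, had 140 and 168 in iSPCH at 8 h and 53.4 and 65.1 at 0 h, against 17.5 and 18.1 in WT at 8 h and 55.5 at 0 h. It rose in iSPCH by 1.37 ± 0.21 and fell in WT by 1.59 ± 0.26, and its difference was 2.95 ± 0.34 (adjusted p = 0.000227).

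Called transcriptional regulators besides SPCH were ICE1, SCRM2, SOL1 and TCX2. ICE1 (AT3G26744), the partner of SPCH, had 3397 and 3388 in iSPCH at 8 h and 1194 and 1157 at 0 h, with 1097 and 985 in WT at 8 h and 1102 at 0 h. It rose in iSPCH by 1.53 ± 0.08 and was not called in WT (-0.08 ± 0.10, adjusted p = 0.473), with a difference of 1.61 ± 0.13 (adjusted p = 4.95e-06). SCRM2 (AT1G12860), the second partner, had 1871 and 2011 in iSPCH at 8 h and 1046 and 995 at 0 h, against 686 and 743 in WT at 8 h and 999.7 at 0 h. Its difference was 1.41 ± 0.13 (adjusted p = 2.78e-05), a rise in iSPCH beside a fall in WT. The CXC-domain regulator SOL1 (AT3G22760) had 298 and 354 in iSPCH at 8 h and 115 and 131 at 0 h, against 50.6 and 77.1 in WT at 8 h and 135 at 0 h, a difference of 2.49 ± 0.33 (adjusted p = 0.00103). Its relative TCX2 (AT4G14770) had 304 and 331 in iSPCH at 8 h and 384 and 343 at 0 h, against 136 and 139 in WT at 8 h and 356 at 0 h. TCX2 was not called in iSPCH (-0.19 ± 0.11) and fell in WT by 1.36 ± 0.14, which gives a difference of 1.17 ± 0.18 (adjusted p = 0.00239).

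**Figure D2:**
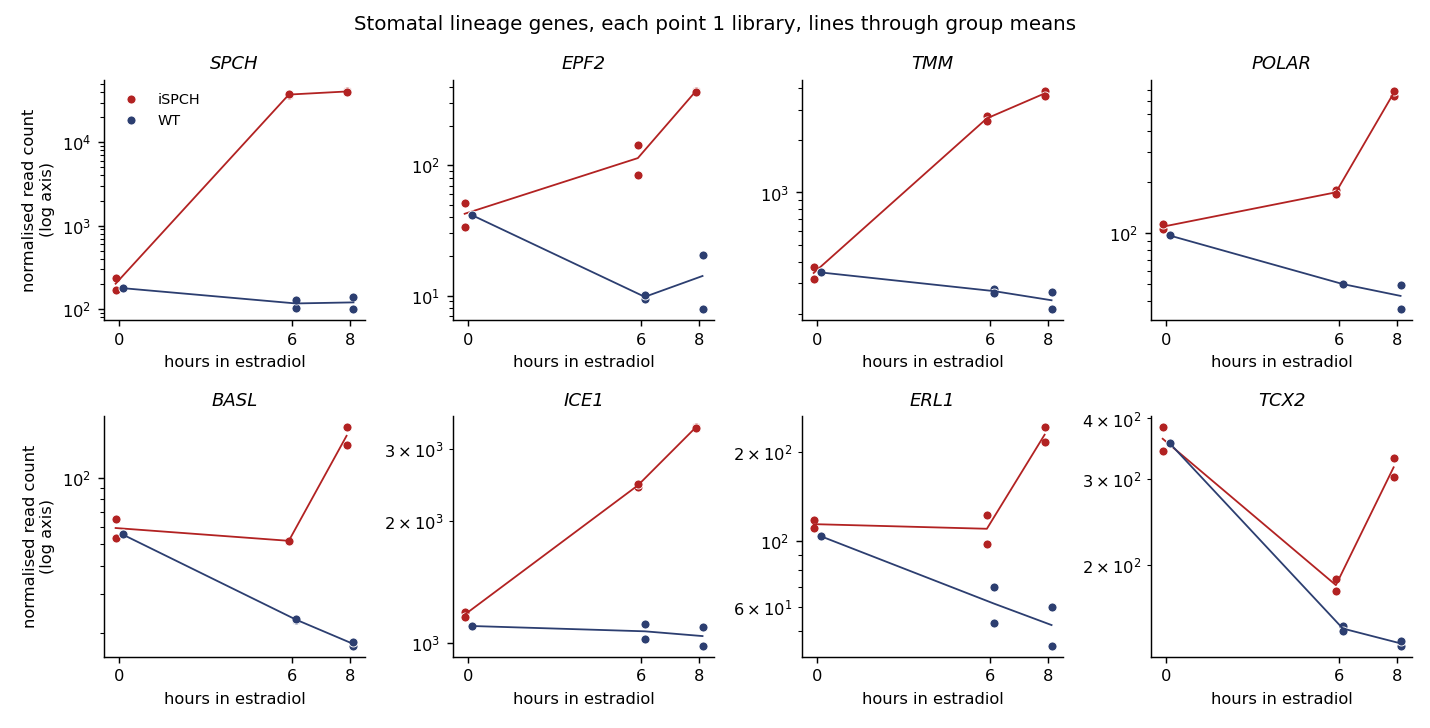
Normalised read count (log axis) of 8 stomatal lineage genes at 0 h, 6 h and 8 h of estradiol, each point 1 library, with lines through the means of iSPCH (red) and WT (blue). The lines start together at 0 h and part by 8 h, with SPCH in iSPCH at 41638 and 39757, while TCX2 in iSPCH dips at 6 h and is back near its 0 h level at 8 h.

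Genes of later steps did not pass. MUTE had 8.49 and 10.4 in iSPCH at 8 h and 42.9 and 34.0 at 0 h, against 10.5 and 9.07 in WT at 8 h and 28.5 at 0 h, with a difference of -0.46 ± 0.67 (adjusted p = 0.794). Both lines fell, and at these levels a difference of this size was not detectable. FAMA, which acts at the last division, had 0.10 ± 0.15 (adjusted p = 0.796). EPF1, a peptide of the later lineage, had 0.47 ± 0.53 (adjusted p = 0.723), and stomagen (EPFL9), which promotes stomata, had -0.45 ± 0.32 (adjusted p = 0.513). The homeobox gene HDG2 had 0.54 ± 0.14 and just missed the threshold (adjusted p = 0.0518). Of the 13 guard cell markers tested, such as the channels KAT1 and SLAC1, limma called 0 in either direction, as did edgeR and DESeq2, with 2 lower at an unadjusted p under 0.05 and a median of -0.11. KAT1 had -0.30 ± 0.19 (adjusted p = 0.453) and SLAC1 0.30 ± 0.35 (adjusted p = 0.736).

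Many root hair genes had a lower change in iSPCH. This list too was written with earlier results of these data known. Of 22 tested members 10 were called lower and 0 higher, against 1.49% and 1.78% of all genes. All 22 values lay below 0, as did 10651 of the 19663 genes tested. The list median was -2.27, and RSL1 had too few reads to test. WT fell too, with 19 of the 22 called lower and 1 higher in its own contrast (29.9% and 31.2% of all genes were) and a WT median of -1.57. In iSPCH 21 were called lower (33.5% of all genes were) with a median of -4.09. The count of 10 was 6 to 9 with single libraries of the compared groups left out. It was 13 with edgeR and 14 without iSPCH 6 h B, the shallowest library. Tested against a 1.5-fold minimum it was 3 of 22. With the filter set at a mean CPM of at least 5, only 7 members were tested and 3 were called lower. edgeR, DESeq2 and limma at an unadjusted p under 0.05 each gave 0 higher.

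COBL9 (AT5G49270), a COBRA-like protein of growing hairs, had 2.12 and 5.77 normalised read counts in iSPCH at 8 h and 186 and 203 at 0 h. WT had 64.6 and 75.9 at 8 h and 214 at 0 h. At 0 h the lines lay close, and at 8 h both iSPCH libraries were far below both WT libraries. It fell by 5.41 ± 0.33 in iSPCH and fell by 1.60 ± 0.40 in WT, with a difference of -3.81 ± 0.52, or 14.0-fold lower (adjusted p = 0.00129). EXPA7 (AT1G12560), a wall-loosening expansin, had 5.31 and 6.92 in iSPCH at 8 h and 193 and 216 at 0 h, against 85.5 and 83.9 in WT at 8 h and 233 at 0 h. Its difference was -3.41 ± 0.50, or 10.6-fold lower (adjusted p = 0.00302).

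COBL9 and EXPA7 are the 2 root hair members with the lowest values among those called, at FDR 0.05, in every alternative that tested them. The windows upstream of COBL9 (chr5:19974531-19974780 on the minus strand) and EXPA7 (chr1:4276255-4276504 on the plus strand) are given for contrast, with the same patterns in capitals.
COBL9: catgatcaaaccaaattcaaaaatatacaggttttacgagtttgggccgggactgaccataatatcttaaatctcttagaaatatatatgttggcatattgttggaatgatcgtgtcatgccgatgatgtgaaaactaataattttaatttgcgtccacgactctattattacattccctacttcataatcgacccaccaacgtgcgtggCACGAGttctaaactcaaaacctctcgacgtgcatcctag
EXPA7: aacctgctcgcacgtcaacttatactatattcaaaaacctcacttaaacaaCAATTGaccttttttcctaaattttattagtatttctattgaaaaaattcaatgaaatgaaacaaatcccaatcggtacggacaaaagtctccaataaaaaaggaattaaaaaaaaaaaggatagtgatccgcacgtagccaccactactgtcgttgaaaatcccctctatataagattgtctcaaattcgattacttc
COBL9 has CANNTG 0 times and CNCGTG 1 time, and EXPA7 has CANNTG 1 time. Of the windows of the 10 called root hair members, 5 held CANNTG, 1 CNCGTG and 0 CACGTG.

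Other called members span wall, signalling and regulatory roles. LRL3 (AT5G58010), a transcription factor of hair growth, had 11.7 and 9.23 in iSPCH at 8 h and 128 and 172 at 0 h, against 63.7 and 85 in WT at 8 h and 172 at 0 h, and a difference of -2.50 ± 0.37 (adjusted p = 0.00167). The calcium pump gene ACA9 (AT3G21180) had 3.19 and 10.4 in iSPCH at 8 h and 151 and 139 at 0 h, against 56.7 and 40.8 in WT at 8 h and 113 at 0 h (-3.18 ± 0.59, adjusted p = 0.00912). COW1 (AT4G34580), a phosphatidylinositol transfer protein of tip growth, had 7.43 and 8.08 in iSPCH at 8 h and 152 and 161 at 0 h, against 55.9 and 44.2 in WT at 8 h and 142 at 0 h (-2.68 ± 0.47, adjusted p = 0.00592). In these genes the lines were alike at 0 h and did not overlap at 8 h. RHS19, PRP3, EXPA18, MRH6 and RHS12 were called too, with differences of -2.96, -3.54, -3.06, -3.47 and -1.88. Some of these sizes rest on very few reads. MRH6 had 1.06 and 0 in iSPCH at 8 h, and its value was -5.46 with an added count of 0.1 and -1.84 with 5. EXPA18 had 1.06 and 3.46 there and ran from -3.62 to -2.00 over the alternatives. Their calls did not all hold: without a single library RHS19 (adjusted p up to 0.0538), EXPA18 (0.0510), PRP3 (0.112), MRH6 (0.106) and RHS12 (0.132) were lost, and MRH6 and RHS12 also with an added count of 5 (0.0649 and 0.0550). MRH6 was lost with an added count of 0.1 (0.0830), and RHS12 with no filter on low values (0.0755) or without the robust variance (0.0551). Among members not called, LRX1, a wall protein, had -3.23 ± 0.74 (adjusted p = 0.0701). RSL4, which sets hair length, had -1.30 ± 0.40 (adjusted p = 0.0932), and RHD6, which starts hairs, had -0.09 ± 0.40 (adjusted p = 0.939).

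Markers of other root cell types lay on the same side of 0. All 8 tested were below 0 (10651 of all 19663 genes were) with a median of -0.49. limma, edgeR and DESeq2 called 0, and 2 were lower at an unadjusted p under 0.05. CASP1, of the Casparian strip, had -0.56 ± 0.23 (adjusted p = 0.251), and SMB, of the root cap, -0.76 ± 0.42 (adjusted p = 0.384). The summed level of the 8 was 4068 and 4213 in iSPCH at 8 h and 4141 and 4120 at 0 h, against 4213 and 4907 in WT at 8 h and 3885 at 0 h. The 22 root hair genes summed to 1910 and 2008 in iSPCH at 8 h and 5352 and 5864 at 0 h, against 3148 and 3464 in WT at 8 h and 6086 at 0 h. Whether a smaller share of root RNA has a part in the root hair values was not tested.

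**Figure D3:**
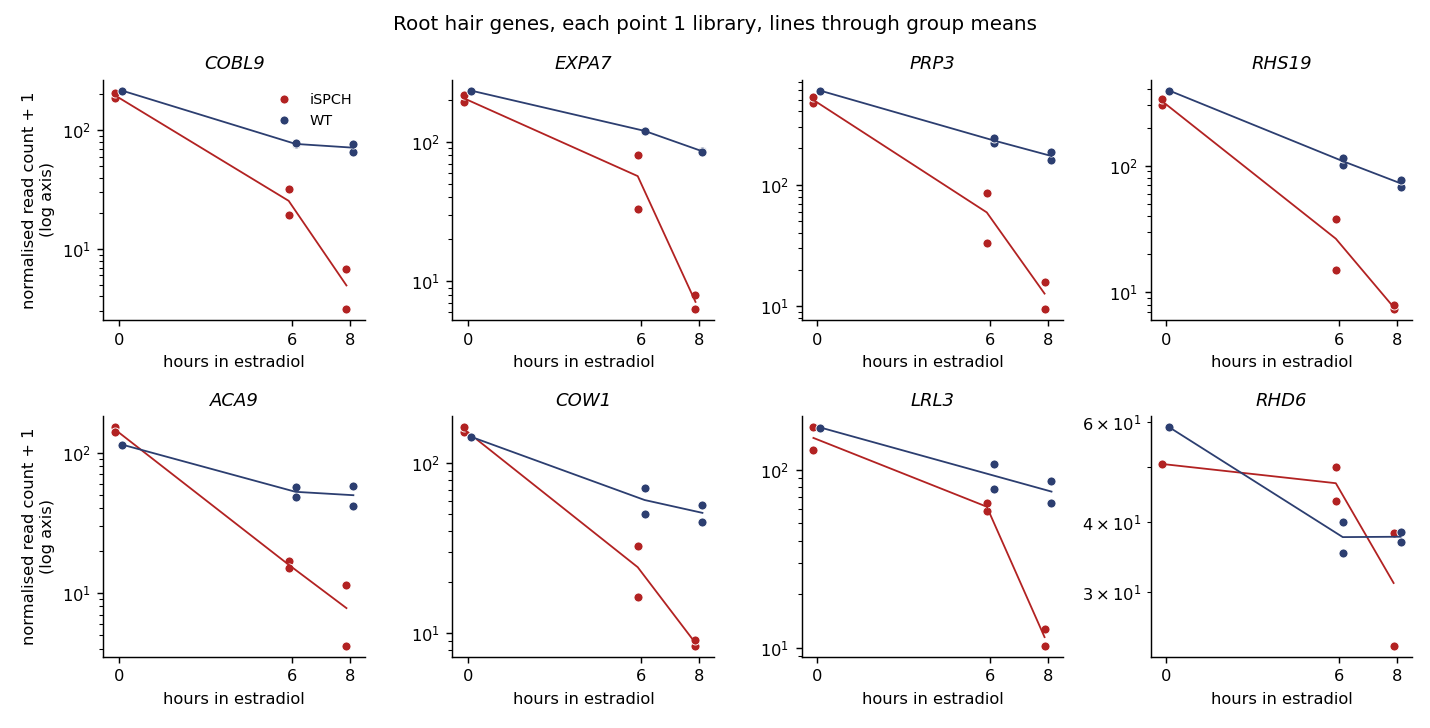
Normalised read count plus 1 (log axis) of 8 root hair genes at 0 h, 6 h and 8 h of estradiol, each point 1 library, with lines through the means of iSPCH (red) and WT (blue). For COBL9 the iSPCH libraries at 8 h, at counts of 2.12 and 5.77, lie below the WT libraries at 64.6 and 75.9, while for RHD6 the lines overlap.

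Epidermal and cuticle genes, again listed with earlier results known, had a lower change in iSPCH in 4 of 12 members (1.49% of all genes), with 0 higher. All 12 values lay below 0, as did 10651 of the 19663 genes tested, and the median was -0.44. ABCG12 (AT1G51500), a wax exporter, had 1432 and 1539 in iSPCH at 8 h and 3744 and 3845 at 0 h, against 2436 and 2146 in WT at 8 h and 3440 at 0 h (-0.76 ± 0.13, adjusted p = 0.00491). CER6 (AT1G68530), a fatty acid elongase for wax, had 4640 and 4547 in iSPCH at 8 h and 6867 and 7245 at 0 h, while WT had 7178 and 7295 at 8 h and 7047 at 0 h (-0.66 ± 0.13, adjusted p = 0.0101). FDH and the epidermal identity factor ATML1 had -0.53 ± 0.13 and -0.49 ± 0.12 (adjusted p = 0.0350 and 0.0363). Leaving out any library of the compared pairs ended both of these calls (adjusted p up to 0.112 and 0.108), and ATML1 was also lost with reads scaled by library totals (0.0523) or no filter (0.0532). The list count was then 2 or 3 of 12. Tested against a 1.5-fold minimum it was 0 of 12, so the ABCG12 and CER6 calls were lost there too.

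Auxin genes were all 11 below 0 (10651 of all 19663 genes were) with a median of -0.53. Of these 2 were called lower (1.49% of all genes were), the efflux carriers PIN3 (-0.93 ± 0.17, adjusted p = 0.00833) and PIN7 (-0.52 ± 0.12, adjusted p = 0.0291). PIN7 had 1602 and 1458 in iSPCH at 8 h and 1824 and 1756 at 0 h, against 2316 and 2349 in WT at 8 h and 1899 at 0 h. It fell in iSPCH and rose in WT. The PIN7 call was lost without iSPCH 8 h B (adjusted p = 0.0882), iSPCH 0 h A (0.0911) or B (0.0604), or WT 8 h A (0.0638) or B (0.0718). Of 13 brassinosteroid genes 1 was called lower (1.49% of all genes), the biosynthetic CPD at -0.58 ± 0.14 (adjusted p = 0.0321), where both lines rose. It was lost without iSPCH 8 h A or B, iSPCH 0 h B or WT 8 h A (adjusted p = 0.0735 to 0.116). Of 8 cytokinin response regulators 1 was called lower (1.49% of all genes), ARR9, at -0.70 ± 0.15 (adjusted p = 0.0178), and lost without iSPCH 8 h A, iSPCH 0 h A or WT 8 h A (0.0591 to 0.0720). ARR16 had 29.7 and 40.4 in iSPCH at 8 h and 40.1 and 34.0 at 0 h, against 4.36 and 4.53 in WT at 8 h and 39.3 at 0 h. Its difference of 2.80 ± 0.73 missed the threshold (adjusted p = 0.0522). It passed with edgeR (0.0175), with reads scaled by library totals (0.0434), with the 7 libraries alone (0.00953) and without iSPCH 6 h B (0.0228).

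CPL3 (AT4G01060), a small MYB protein of hair patterning, was the 1 called higher of 13 trichome and hair patterning genes (1.78% of all genes were). It had 63.7 and 63.4 in iSPCH at 8 h and 45.8 and 57.4 at 0 h, against 9.60 and 9.07 in WT at 8 h and 50.1 at 0 h. It was not called in iSPCH (0.31 ± 0.26) while WT fell by 2.31 ± 0.31, giving 2.61 ± 0.41 (adjusted p = 0.00254). Of 22 cell cycle genes 1 was called higher (1.78% of all genes), the D-type cyclin CYCD3;2 at 0.69 ± 0.13 (adjusted p = 0.00931), and the list median was 0.07. JAZ10, a repressor of jasmonate responses, had 189 and 175 in iSPCH at 8 h and 27.7 and 41.8 at 0 h, against 54.1 and 55.5 in WT at 8 h and 46.2 at 0 h (2.14 ± 0.32, adjusted p = 0.00201). TCH4, a touch-induced wall enzyme gene of the same list of 9, rose in both lines and less in iSPCH (-0.89 ± 0.19, adjusted p = 0.0242, up to 0.0811 without single libraries). Of 9 hypoxia genes limma, edgeR and DESeq2 called 0, with 2 higher at an unadjusted p under 0.05 and a median of 0.18. The 7 vascular genes all lay below 0. Of these 2 were called lower (1.49% of all genes), ATHB8 (-0.70 ± 0.15, adjusted p = 0.0201) and IRX3 (-0.64 ± 0.16, adjusted p = 0.0385). Both were lost without single libraries (adjusted p up to 0.0722 for ATHB8 and 0.103 for IRX3), and IRX3 with DESeq2 (0.101) or no filter (0.0655).

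**Figure D4:**
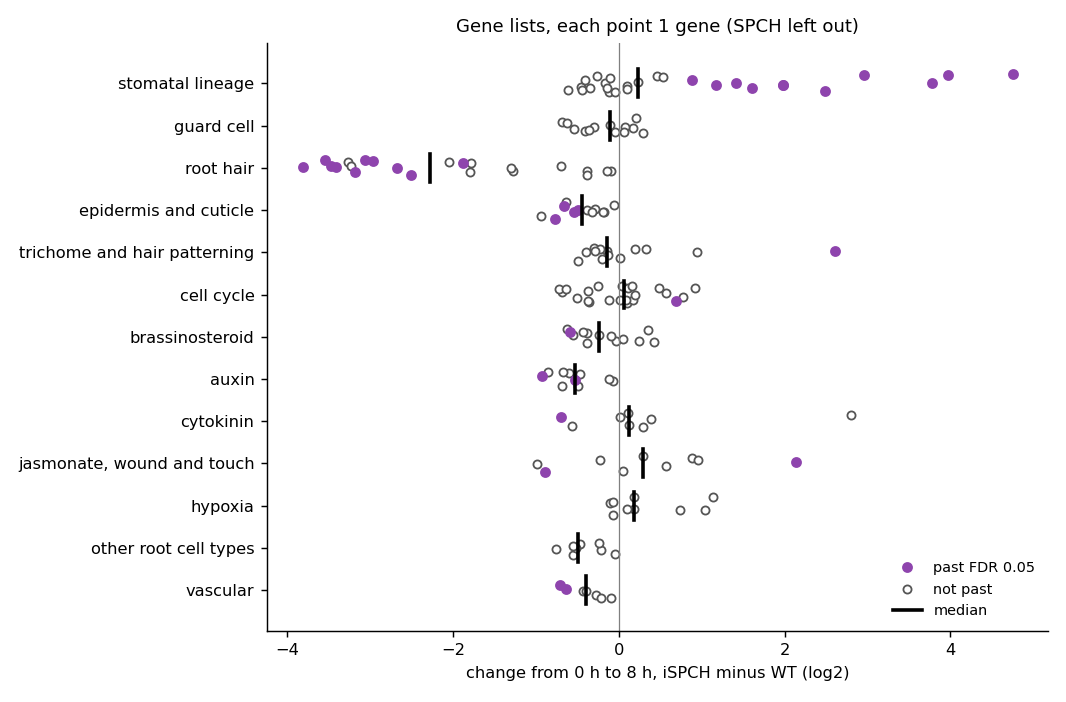
Difference of changes (log2, x axis) of each tested member of 13 gene lists, filled where past FDR 0.05, with the list median as a bar and SPCH left out. The stomatal lineage points reach 4.75 (EPF2) on the right, the root hair points reach -3.81 (COBL9) on the left, and the other medians lie between -0.53 and 0.29.

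Photosynthesis genes of the mesophyll could not be divided into libraries, because they are too abundant, and were not tested. From the authors' means in the deposited table, LHCA1, an antenna protein of photosystem I, had 79349 in iSPCH at 8 h and 127555 at 0 h, against 120375 in WT at 8 h and 115985 at 0 h. That is a difference of changes of -0.74 (log2). The 8 genes ranged from -0.74 to -0.10 (GAPA), all below 0. No spread between libraries can be given for these values.

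Outside the lists, AT1G12845, which codes for an uncharacterised protein, had close values within each group. It had 1902 and 1856 in iSPCH at 8 h and 67.7 and 65.1 at 0 h, against 41.0 and 46.5 in WT at 8 h and 83.2 at 0 h. It rose in iSPCH by 4.80 ± 0.13 and fell in WT by 0.91 ± 0.16, a difference of 5.72 ± 0.21 or 52.5-fold (adjusted p = 1.11e-09). AT5G67020 and AT2G25460, also without a functional name here, had 3.19 ± 0.43 and 3.04 ± 0.32 (adjusted p = 0.000816 and 0.000128).

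A further set near the top rested on low starting counts. AT1G26380, of the berberine-bridge enzyme family, had 415 and 105 in iSPCH at 8 h and 0 and 0.972 at 0 h, against 6.98 and 3.40 in WT at 8 h and 3.08 at 0 h. The iSPCH libraries at 8 h lay far apart, and the fitted value was 6.69 ± 1.27 (adjusted p = 0.0134). Its neighbour in the family, AT1G26410, had 118 and 68.1 in iSPCH at 8 h and 0 in both at 0 h, against 2.62 and 3.40 in WT at 8 h and 0 at 0 h (adjusted p = 0.0474). M10, a late embryogenesis abundant protein gene, had 92.4 and 68.1 in iSPCH at 8 h and 0 in both at 0 h, against 13.1 and 5.67 in WT at 8 h and 0.770 at 0 h (adjusted p = 0.0134). No fold is given for AT1G26410 and M10, since a fitted value against libraries at 0 depends on the added count. The value of AT1G26380, near 0 in iSPCH at 0 h, is also loosely set and ran from 4.99 to 8.67 over the alternatives. With edgeR the 3 calls were lost (adjusted p = 0.511 for AT1G26380, 1 for AT1G26410 and 0.253 for M10). They were also lost without single libraries: AT1G26380 without iSPCH 0 h A (0.0558) or WT 8 h B (0.0621), AT1G26410 without either iSPCH 0 h or WT 8 h library (0.0869 to 0.109), with an added count of 0.1 (0.209) or without the robust variance (0.0582), and M10 without iSPCH 8 h A (0.0671). AT5G57010, of a calmodulin-binding family, had 52.0 and 48.5 in iSPCH at 8 h and 13.4 and 7.78 at 0 h, against 1.75 and 5.67 in WT at 8 h and 20.03 at 0 h (4.49 ± 0.76, adjusted p = 0.00446). AT1G36640, with 71.1 and 70.4 in iSPCH at 8 h against 12.2 and 11.3 in WT at 8 h, had 3.46 ± 0.80 (adjusted p = 0.0286), and its call was lost without iSPCH 0 h A (0.0569), WT 8 h A (0.0737) or WT 8 h B (0.0766), or with an added count of 0.1 (0.0508).

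The genes outside the lists with the lowest values include the following. The peroxidase genes AT1G05240 and AT1G05250 are identical over 1760 bases and count as 1 observation. AT1G05240 had 11.7 and 17.3 in iSPCH at 8 h and 874 and 1014 at 0 h, against 301 and 349 in WT at 8 h and 1338 at 0 h (-3.91 ± 0.51, adjusted p = 0.00814). Another peroxidase gene, AT1G30870, had -2.96 ± 0.39 (adjusted p = 0.00267). The kinase genes AT2G41970 and AT5G61350 had -3.32 ± 0.67 and -3.11 ± 0.49 (adjusted p = 0.0202 and 0.00267), and the first was lost without iSPCH 0 h B (0.0642), WT 8 h A (0.0641) or WT 8 h B (0.0763). RHS8, annotated as root hair specific, had 0 and 3.46 in iSPCH at 8 h and 102 and 121 at 0 h, against 25.3 and 38.5 in WT at 8 h and 112 at 0 h (-3.92 ± 0.85, adjusted p = 0.0317). Over the alternatives RHS8 ran from -5.70 to -2.47. It was lost without either iSPCH 0 h or WT 8 h library (adjusted p = 0.0655 at the lowest), with an added count of 0.1 (0.330) and with the 7 libraries alone (0.0747).

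In some genes WT fell and iSPCH was not called. CP1 (AT5G49480), a calcium-binding protein gene, had 1553 and 1424 in iSPCH at 8 h and 1332 and 1663 at 0 h, against 505 and 534 in WT at 8 h and 1806 at 0 h (1.79 ± 0.21, adjusted p = 0.000816). WIH3 and AT2G43550, a knottin-family gene, showed the same shape, with differences of 1.85 ± 0.27 and 2.13 ± 0.29 (adjusted p = 0.00143 and 0.00144). In GSTU25, a glutathione transferase gene, APR3, of sulphate assimilation, and CRF2, a cytokinin response factor, both lines fell and iSPCH fell less, with differences of 0.98, 1.04 and 1.34. APR3 had 503 and 500 in iSPCH at 8 h and 1145 and 1036 at 0 h, against 320 and 296 in WT at 8 h and 1375 at 0 h. VTC5 (AT5G55120), of ascorbate synthesis, rose in iSPCH by 1.46 ± 0.08 and fell in WT by 0.69 ± 0.10 (2.15 ± 0.13, adjusted p = 3.95e-07). DHAR1 (AT1G19570), a dehydroascorbate reductase with a near-identical copy, rose in both lines and more in iSPCH (1.41 ± 0.13, adjusted p = 2.49e-05). These genes were named for the smallest p-values in their classes.

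Genes with a lower change were named in the same way. PIF4 (AT2G43010), a growth-promoting transcription factor, rose in both lines, to 1141 and 1181 in iSPCH at 8 h, against 824 and 897 in iSPCH at 0 h, and to 1825 and 1786 in WT at 8 h, against 636 in WT at 0 h (-1.07 ± 0.12, adjusted p = 0.000196). PIF7 (AT5G61270) fell in both, with 141 and 142 in iSPCH at 8 h and 561 and 634 at 0 h, against 356 and 357 in WT at 8 h and 491 at 0 h (-1.61 ± 0.18, adjusted p = 0.000196). The blue-light receptor gene PHOT1 (AT3G45780) had 1814 and 1925 in iSPCH at 8 h and 5079 and 4755 at 0 h, against 3579 and 3599 in WT at 8 h and 4455 at 0 h (-1.08 ± 0.13, adjusted p = 0.00025). PKS1, which works with phytochromes and PHOT1, was not called in iSPCH, with 539 and 604 in iSPCH at 8 h and 586 and 538 at 0 h, while it rose in WT, which had 1021 and 925 at 8 h and 562 at 0 h (-0.76 ± 0.14, adjusted p = 0.00880). The auxin-induced IAA2 and the Dof factor CDF3 fell in iSPCH by 0.83 ± 0.08 and 0.94 ± 0.09 and were not called in WT (0.04 ± 0.09 and 0.07 ± 0.11). Their differences were -0.87 ± 0.12 and -1.01 ± 0.14 (adjusted p = 0.0011 for each). The mechanosensitive channel gene MSL5 fell in both lines and more in iSPCH (-1.11 ± 0.13, adjusted p = 0.000335).

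Taking out the 0 h difference removed some genes that differ at 8 h. At 8 h 2105 genes differed between the lines (10.7%; 4.74% higher and 5.96% lower in iSPCH), and 1531 of them were not called in the difference of changes. Only 11 of the 1531 were called in the same direction at 0 h, where 18 genes differed in all (0.0915%; 0.0458% higher and 0.0458% lower in iSPCH). The others lacked a 0 h call in that direction, and the SE of the difference of changes is wider, with a median of 0.195 against 0.123 for the 8 h difference. QQS (AT3G30720), a gene found only in Arabidopsis thaliana, had 205 and 218 in iSPCH at 8 h and 158 and 220 at 0 h, against 35.8 and 45.3 in WT at 8 h and 33.1 at 0 h. The line difference was 2.36 ± 0.20 at 8 h and 2.46 ± 0.25 at 0 h, and the difference of changes was -0.10 ± 0.32 (adjusted p = 0.918). The retroelement-like SADHU3-2 had 0.01 ± 0.36, beside a line difference of 2.52 ± 0.23 at 8 h and 2.51 ± 0.28 at 0 h. AT4G30330, a small nuclear ribonucleoprotein gene, had 7.43 and 13.8 in iSPCH at 8 h and 9.54 and 12.6 at 0 h, against 104 and 120 in WT at 8 h and 177 at 0 h (0.56 ± 0.50, adjusted p = 0.629). AT3G31540, which has a near-identical copy, had 0 in every iSPCH library of both hours, against 89.0 and 99.7 in WT at 8 h and 45.4 at 0 h.

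The subtraction also brought in 68 genes that were not called at 8 h, 26 higher and 42 lower. Such calls lean on the single untreated WT library. MYBL2 (AT1G71030), a repressor of anthocyanin synthesis, had 1373 and 1330 in iSPCH at 8 h and 241 and 264 at 0 h, against 1507 and 1643 in WT at 8 h and 122 at 0 h (-1.27 ± 0.13, adjusted p = 0.000122). PRR7 (AT5G02810), a component of the circadian clock, had 4049 and 4373 in iSPCH at 8 h and 804 and 812 at 0 h, against 5594 and 4738 in WT at 8 h and 457 at 0 h (-1.11 ± 0.17, adjusted p = 0.00206). For MYBL2 and PRR7 the 0 h difference was itself called (1.05 ± 0.10 and 0.82 ± 0.13, adjusted p = 0.000228 and 0.0176). On the higher side the ferritin gene FER1 had 5299 and 4552 in iSPCH at 8 h and 2261 and 2581 at 0 h, against 4163 and 4044 in WT at 8 h and 3343 at 0 h (0.73 ± 0.15, adjusted p = 0.0133). FER1 overlaps AT5G01595, with which it counts as 1 observation, and was lost without iSPCH 8 h A (0.0601) or iSPCH 0 h A (0.0579). How far WT at 0 h varies between samples was not measured here.

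The 4 libraries of 6 h are outside the difference of changes and gave a separate reading of the line difference. Unlike the difference of changes, this reading has no 0 h difference taken out. At 6 h 924 genes differed (4.7%), 226 higher in iSPCH than in WT (1.15%) and 698 lower (3.55%). Of the 350 genes with a higher change at 8 h, 87 were called higher at 6 h, which is 24.9% of the 350 and 38.5% of the 226, and 1 was called lower. Of the 292 with a lower change, 143 were called lower at 6 h, which is 49.0% of the 292 and 20.5% of the 698, and 1 was called higher. The median line difference at 8 h was 0.84 for the 350 and -0.61 for the 292. At 6 h the medians were 0.21 and -0.39, against 0.00 over all genes. Without iSPCH 6 h B 100 genes were higher at 6 h and 226 lower in all, of which 56 lay in the 350 and 85 in the 292, and the medians were 0.25 and -0.38. Both readings share the fit's estimate of each gene's spread.

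Of the 11 called stomatal genes 10 were called higher at 6 h, and TCX2 was not (0.29, adjusted p = 0.178). Of the 10 called root hair genes 9 were called lower at 6 h, and LRL3 was not (-0.56, adjusted p = 0.208). BASL stood at 52.0 and 51.8 in iSPCH at 6 h, against 22.7 and 23.1 in WT, so at 6 h the iSPCH libraries were near their 0 h level. Of the 15 genes with the highest values 8 were called at 6 h and 7 were not. AT1G26380 had 16.5 and 4.20 in iSPCH at 6 h, against 5.69 and 20.1 in WT (-0.32 ± 0.80, adjusted p = 0.896). AT2G27389 had 65.4 and 49.0 in iSPCH at 6 h, against 52.1 and 60.4 in WT (0.01 ± 0.23, adjusted p = 0.987), and 212 and 166 in iSPCH at 8 h, against 31.4 and 43.1 in WT. Its difference of changes was 3.10 ± 0.37 (adjusted p = 0.000315).

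**Figure D5:**
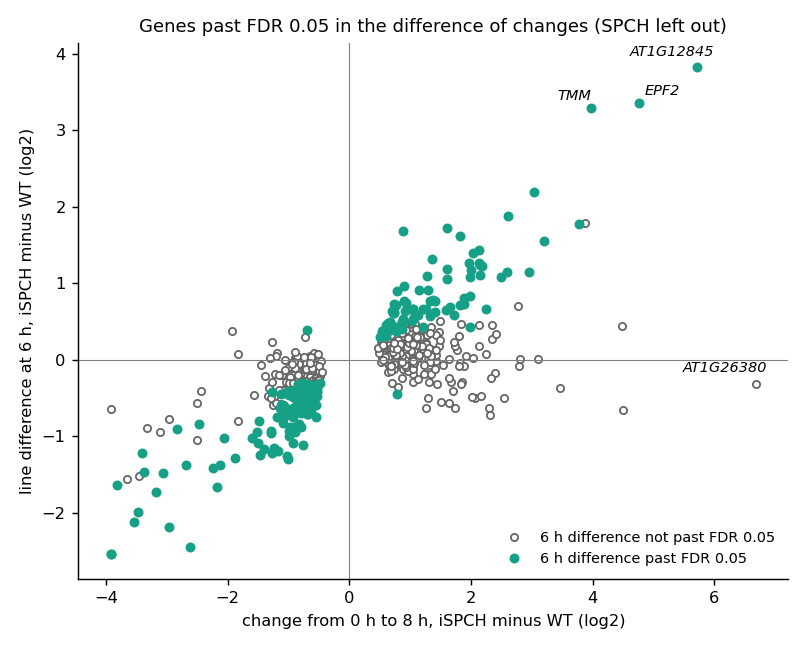
Line difference at 6 h (y axis, log2, iSPCH minus WT) against the difference of changes from 0 h to 8 h (x axis, log2) for the genes past FDR 0.05 in the difference of changes, SPCH left out, filled where the 6 h difference passed FDR 0.05. EPF2, TMM and AT1G12845 are high on both axes, while AT1G26380 is at 6.69 on the x axis and -0.32 on the y axis.

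Several named genes overlap another annotated gene, and the strand of the libraries is not stated. Their reads and those of the other gene cannot be told apart. This holds for POLAR, SOL1, TCX2, ERL1, EXPA7, EXPA18, ACA9, RHS19, ARR9, CPD, IRX3, JAZ10, CYCD3;2, PIF7, PKS1, APR3, HDG2, SLAC1, CASP1, FER1, AT1G30870 and AT2G27389.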

How the data were processed

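Messenger RNA sequencing of whole seedlings gave 11 libraries in 6 groups, of which 7 in 4 groups form the comparison. The deposited table holds the signal per gene as normalised read counts, averaged over each group by the authors. Per the submitters' processing notes CASAVA 1.8, TopHat and DESeq were used, with build TAIR10; neither the counter nor the annotation it used is named in the material read here. Each mean is a sum of whole reads divided by the libraries' size factors, and the reads of each library were recovered from it for 33487 of 33602 genes. The other 115 genes, with 31.6% of reads, are too abundant to divide and were not tested. Which library of a pair is A or B is arbitrary.

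Genes at 1 CPM or more in at least 2 libraries were fitted as log2(normalised count + 1) with limma 3.58.1 (R 4.3.3; trend and robust variance) over all 11 libraries, with 1 coefficient per group. The difference of changes was a contrast, and p-values were Benjamini-Hochberg adjusted over the 19663 genes. A fold change is on this log2 scale and understates changes of low genes. The planned test, edgeR, assumed counts deposited per library; since group means were deposited, edgeR 4.0.16 and DESeq2 1.42.0 on the recovered reads are alternatives. Other alternatives were the scaling, the added count, the filter, the variance, a 1.5-fold minimum, the 7 libraries alone, and leaving out in turn each library of iSPCH 8 h, iSPCH 0 h and WT 8 h, and iSPCH 6 h B. WT 0 h, with 1 library, cannot be left out, and the other 6 h libraries were not. On simulated data with 200 of 19663 genes changed, 23.9% of 1.5-fold, 65.7% of 2-fold and 93.9% of 4-fold changes were found, with 6 false among 128 calls. There the 200 genes changed in iSPCH at 8 h only, and every library was otherwise drawn from the gene's overall mean. The simulation held no other effect of line or time, unlike the data, so these shares need not hold for the real comparison.

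Members and gene lists were chosen with earlier results of these data known. Named by rule were SPCH, the called stomatal and root hair members, the 15 highest and 15 lowest called genes with a group mean of at least 50, and up to 4 genes with the smallest p of each other list and class. Also named were 5 leading genes each way called between the lines at 8 h and in the same direction at 0 h, but not in the difference of changes. Another 5 each way were called in the difference of changes but not between the lines at 8 h. The text gives a selection of these, and that selection, the list members not called and the genes given for 6 h were chosen after their values were seen. Names and positions come from RefSeq on TAIR10.1.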

Additional observations from a re-analysis of the deposited data

Results flagged for a closer look

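A test of the difference between the lines' own changes passed for 642 genes. Among the named ones, 14 were called in opposite directions in iSPCH and WT. With a rise in iSPCH and a fall in WT these were AT1G12845 (difference of changes 5.72 on the log2 scale), EPF2 (4.75), AT5G57010 (4.49), TMM (3.97), POLAR (3.78), AT5G67020 (3.19), BASL (2.95), SOL1 (2.49), VTC5 (2.15), ERL1 (1.98), MLP43 (1.98) and SCRM2 (1.41). With a fall in iSPCH and a rise in WT they were AT5G06970 (-0.64), whose call was lost without iSPCH 8 h A (limma, adjusted p = 0.0601), and PIN7 (-0.52), whose call was lost without any of 5 libraries (adjusted p up to 0.0911). MLP43 had 2094 and 2134 normalised read counts in iSPCH at 8 h and 1127 and 1016 at 0 h, against 644 and 603 in WT at 8 h and 1245 at 0 h. All of these values rest on the single WT library at 0 h.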

How the results depend on the processing

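Of 2319 values of named genes under alternatives, 0 changed direction among the called ones, 154 fell short of the threshold and 13 newly passed it. All 642 called genes kept their sign in every combination of libraries, so leaving out a library could not change a direction. Of 92 called named genes 68 kept the call in every alternative that gave them an adjusted p, other than the 1.5-fold minimum, which 38 passed. An alternative whose filter left a gene out was not counted for that gene. Testing against that minimum left 56 genes in the difference of changes (43 higher, 13 lower), 5697 in the iSPCH change, 4696 in the WT change and 184, 5 and 25 line differences at 8 h, 0 h and 6 h. The 0 h count was 34 with scaling by total reads, 30 with no filter and 42 with DESeq2. edgeR gave 788 genes in the difference of changes and DESeq2 574. With single libraries left out, the difference of changes gave 343 to 950 genes (177 to 484 higher, 144 to 466 lower), lowest without iSPCH 8 h A (343) and highest without iSPCH 6 h B (950, chosen after seeing the data). The 8 h line difference gave 1114 to 2524, that at 0 h 19 to 40 and that at 6 h 326 to 901. The cause was not tested. No paired analysis was possible because the deposited columns carry no replicate numbers (they are means over a group). Depth limits genes with few reads, such as MUTE and MRH6.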
